A study of Mus musculus with 21 samples.

Results

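The collagen genes were taken from an RNA-seq table of enriched testis germ cells, by gene symbols of the form Col, a number, a and a number. The rule used names and no measured value, and it found 43 members among 37620 genes. All 12 libraries came from C57BL/6J (B6) mice at 12 days post-partum (dpp), and their titles carry the letters wt. The titles sort them into 3 libraries for each of 4 sample numbers, called 186wt, 343wt, 444wt and 456wt, and no treatment or second genotype separates these. The cells are labelled as spermatocytes and were collected after collagenase and trypsin digestion of the tissue, with no sort by a marker. The labels do not say whether a sample number is an animal or a pool. Nor do they say whether the 3 libraries of a number came from separate RNA. The authors describe RNA from 4 replicates of germ cells, without saying how these map to the 12 libraries. A test between sample numbers therefore measures differences against the spread between libraries, which may be technical. The values are FPKM, fragment numbers divided by the length of the transcript and the size of the library, and levels can therefore be set beside each other between genes of different length.

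Defining markers of meiotic germ cells were present in every library: 10 of 10 listed genes were above 0.1 FPKM, with a sum from 243.2 to 412.4 FPKM per library. Markers of Sertoli cells, the somatic nurse cells of the tubule, summed to between 2540.4 and 4578.3 FPKM, so RNA of somatic marker genes was present as well. The estimated depth was 12.8 to 17.85 M (mega) fragments per library. At the median library, 0.1 FPKM in a transcript of 1 kb corresponded to 1.48 fragments. Libraries of 1 number differed little from each other (chi-square per degree of freedom 1.49 to 1.68), while sample numbers differed more (56.1). The value between sample numbers used fragments summed over the 3 libraries of a number and a larger set of genes. Chi-square grows with fragment numbers, so it is not on the same scale as the values within a number.

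Collagens are extracellular matrix proteins built of 3 chains wound into a triple helix, which requires a glycine at the head of each triplet of residues (Gly-X-Y). Fibrillar collagens have a long uninterrupted helix and form the banded fibrils of connective tissue. Type IV collagens have a helix broken by short interruptions and form the sheet-like network of basement membranes, such as the one under the seminiferous epithelium that Sertoli cells and peritubular myoid cells both contribute to. The other collagens include beaded filaments (type VI), fibril-associated collagens (FACIT), multiplexins (types XV and XVIII, found in basement membrane zones), short-chain, transmembrane and anchoring fibril collagens. Of the 43 members, 11 were fibrillar, 6 were type IV and 26 were in the remaining classes.

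The helix that separates the classes can be read in the coding sequence. The following exons are from the GENCODE M1 annotation of NCBI build 37 (mm9), the build of the deposited values, and are printed in the direction of transcription. Capitals mark glycine codons of the Gly-X-Y repeat, counted where at least 5 triplets stood in a row. The 3 fibrillar exons are the first exons of 54 bp in the uninterrupted helix of the chains with the highest FPKM in that class, and each holds 6 glycine codons with no break.
Col1a1, coding exon 8 of 51, chr11:94801218-94801271, plus strand: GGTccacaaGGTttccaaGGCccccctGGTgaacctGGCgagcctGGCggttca
Col1a2, coding exon 8 of 52, chr6:4465481-4465534, plus strand: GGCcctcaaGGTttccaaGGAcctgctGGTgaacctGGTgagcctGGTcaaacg
Col3a1, coding exon 6 of 51, chr1:45382205-45382258, plus strand: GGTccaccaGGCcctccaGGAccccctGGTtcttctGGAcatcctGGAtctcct

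The 3 type IV exons are those of Col4a1, Col4a2 and Col4a4 in which the first break between runs lies within 1 exon of at most 200 bp, and the break is the long stretch of lower case between capitals. It left out 10 residues from the repeat in Col4a1, 2 in Col4a2 and 5 in Col4a4.
Col4a1, coding exon 9 of 52, chr8:11244486-11244569, minus strand: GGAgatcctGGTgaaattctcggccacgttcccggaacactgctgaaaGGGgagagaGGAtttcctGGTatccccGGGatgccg
Col4a2, coding exon 14 of 47, chr8:11409422-11409472, plus strand: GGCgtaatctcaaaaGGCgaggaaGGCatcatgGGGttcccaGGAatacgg
Col4a4, coding exon 7 of 47, chr1:82532316-82532384, minus strand: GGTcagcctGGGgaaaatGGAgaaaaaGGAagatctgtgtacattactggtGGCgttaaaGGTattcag

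Over the longest coding transcript of each of the 43 members, the longest run of Gly-X-Y had a median of 338 triplets in the fibrillar class, with a range of 216 to 344. In type IV the median was 43.5 triplets and the range 39 to 66, and each chain held 16 to 24 separate runs against 2 or 3 in the fibrillar chains. The other collagens had 28 to 113 triplets in their longest run (median 48.5) and 2 to 17 runs, so the longest runs of type IV lay within their range. The exons followed the same division: 305 of 539 fibrillar helix exons (56.6%) were exactly 54 bp long, against 12 of 257 (4.7%) in type IV and 149 of 649 (23.0%) in the other classes. Exon lengths that are multiples of 9 bp, which keep whole Gly-X-Y triplets together, made up 94.8% of fibrillar and 51.4% of type IV helix exons.

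The start regions of 2 loci are shown because the data bear on them: the genes Col4a3 and Col4a4 start back to back and had the steadiest chain ratio of the pairs examined, and Col3a1 had the smallest p-value of all members. Between the start of Col4a4 on the minus strand and that of Col4a3 on the plus strand lie 71 bases of NCBI build 37, of which 69.0% are G or C. The Col3a1 bases are the 150 upstream of its start in RefSeq (build GRCm38.p6), where the start is also the first base of the GENCODE transcript, and 37.3% of them are G or C.
Col4a4 to Col4a3, chr1:82583425-82583495, plus strand: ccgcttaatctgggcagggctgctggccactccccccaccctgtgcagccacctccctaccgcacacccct
Col3a1 upstream, chr1:45311388-45311537 of GRCm38.p6, plus strand: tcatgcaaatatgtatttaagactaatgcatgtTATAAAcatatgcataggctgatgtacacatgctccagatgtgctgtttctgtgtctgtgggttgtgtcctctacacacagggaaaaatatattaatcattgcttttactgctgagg

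Capitals in these start regions mark the words CCAAT (of the CCAAT box), GGGCGG (of the GC box) and TATAAA (of the TATA box) on either strand. They are matches of letters at any position, and whether a match serves as such a box was not tested. Only TATAAA was found, once, with its first base 117 bases upstream of the Col3a1 start, and none of the 3 words occurs in the 71 bases. In windows from 250 bases before to 50 after the start, GGGCGG was present in 23 of 38 start regions of 35 members (60.5%) and in 35.7% of all 32851 start regions in the RefSeq table. CCAAT was present in 34.2% of the members' windows and 37.4% of all, and TATAAA in 13.2% and 13.6%.

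Most collagen genes were expressed in these cells. With a gene taken as expressed at a mean of at least 0.1 FPKM, 40 of 43 members (93.0%) passed, against 55.3% of all genes in the table, and 34 were at 1 FPKM or more. Levels of at least 10 FPKM were reached by 15 members (34.9%) and by 21.9% of all genes, and 5 members exceeded 100 FPKM. No member was at 0 in all libraries. The 3 members below the limit were Col10a1, a chain of growth-plate cartilage, with 0.025 ± 0.00882 FPKM (SD, n = 4 sample numbers), Col19a1 with 0.0308 ± 0.0171 FPKM and Col9a1 with 0.0508 ± 0.0152 FPKM. These rest on an estimated 14, 29 and 35 fragments over all libraries, too few to tell sample numbers apart.

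Together the 43 genes took up 0.222 ± 0.1% of all FPKM (n = 4), and 5 genes, Col1a2, Col18a1, Col1a1, Col3a1 and Col4a1, made up 58.4 ± 4.47% of the collagen sum. The sum was 814.8 FPKM in 186wt, 790.6 in 343wt, 882.5 in 444wt and 1793.7 in 456wt. The libraries of 456wt lay at 1781.5 to 1805.4 and the others at 788.8 to 887.1, so the collagen sum of 456wt stood apart from all other libraries.

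**Figure D1:**
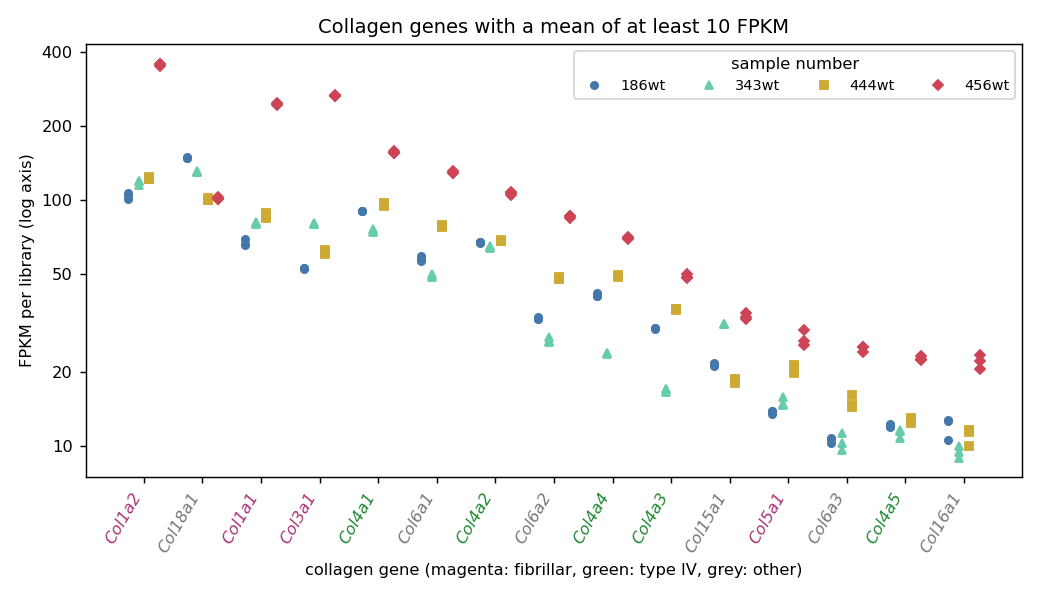
FPKM of the 15 collagen genes that averaged 10 FPKM or more, on a log axis, with 1 point for each of the 12 libraries and colour and shape for the sample number. The red diamonds of 456wt lie above all other libraries in every gene shown but Col18a1, where the libraries of 186wt are the highest.

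The fibrillar class was led by the chains of type I and type III collagen, the main fibrils of soft connective tissue. Col1a2, which encodes the α2 chain of type I, had 104.5 FPKM in 186wt, 117.9 in 343wt, 122.4 in 444wt and 356 in 456wt. Col1a1, its α1 partner, had 66.9, 80.4, 86.2 and 245.8 FPKM in the same order of sample numbers. Col3a1, the single chain of type III, had 52.7, 79.9, 61.2 and 266.5 FPKM. In all 3 genes the lowest library of 456wt (352.17, 243.6 and 265.82 FPKM) was more than 2-fold above the highest library of any other number.

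On the log2(FPKM + 0.1) scale Col3a1 was 2.34 ± 0.02 higher in 456wt than in 186wt (limma contrast, ± SE, adjusted p = 2.75e-14), Col1a1 1.88 ± 0.02 (adjusted p = 9.25e-13) and Col1a2 1.77 ± 0.02 (adjusted p = 9.97e-13). The chains of type V, which nucleates and thins type I fibrils, were lower. Col5a1 had 13.7, 15.1, 20.7 and 27.3 FPKM in 186wt, 343wt, 444wt and 456wt. Col5a2 had 3.53, 5, 4.79 and 16.8 FPKM and rose 2.22 ± 0.08 in log2 from 186wt to 456wt (adjusted p = 2.6e-09), while the same difference was 0.99 ± 0.06 for Col5a1 (adjusted p = 7.83e-08).

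The cartilage chains of type XI behaved unlike each other. Col11a1 had 0.943 FPKM in 186wt, 0.63 in 343wt, 0.827 in 444wt and 2.43 in 456wt, a difference of 1.8 ± 0.31 in log2 between 456wt and 343wt (adjusted p = 0.00066). Col11a2 had 3.14, 2.13, 3.09 and 2.57 FPKM, did not pass the test over the 4 numbers (adjusted p = 0.0942), and its libraries overlapped between numbers. The contrast of 186wt with 343wt for Col11a2 was at the threshold (adjusted p = 0.0498) and was lost under most other settings. Col2a1, the main cartilage fibril chain, stood at 1.2 ± 0.202 FPKM and did not pass either (adjusted p = 0.0598). The lowest member of the class was Col24a1, with 0.946 ± 0.316 FPKM, and it was one of the 2 members with at least a 2-fold range that were highest in 186wt.

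All 6 type IV genes were expressed, from Col4a1 with 104.5 ± 35.4 FPKM down to Col4a6 with 3.37 ± 1.02 FPKM. Col4a1 and Col4a2 encode the chains of the network found in nearly all basement membranes. Col4a1 had 90.5 FPKM in 186wt, 75.3 in 343wt, 96.1 in 444wt and 156 in 456wt. Col4a2 had 67.4, 64.3, 68.2 and 106.3 FPKM. The other 4 chains belong to networks of restricted tissues, the α3.α4.α5 network of the glomerulus and testis among them. Col4a3 had 30, 16.9, 36 and 48.9 FPKM and Col4a4 had 41.1, 23.7, 49 and 70.1 FPKM. Col4a5 had 12.1, 11.3, 12.7 and 22.7 FPKM, and Col4a6 had 2.84, 2.65, 3.11 and 4.87 FPKM.

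The 6 chains were lowest in 343wt and highest in 456wt, each in the order 343wt, 186wt, 444wt, 456wt. In each of them all 3 libraries of 456wt were above every other library. The difference between 456wt and 343wt was largest for Col4a4 (1.56 ± 0.02 in log2, limma adjusted p = 1.34e-12) and Col4a3 (1.53 ± 0.02, adjusted p = 4.1e-12), and smallest for Col4a2 (0.72 ± 0.02, adjusted p = 8.06e-11). Neighbours in this order were not always distinguishable: 186wt and 444wt did not pass the test against each other for Col4a2 (adjusted p = 0.439), Col4a5 (0.19) and Col4a6 (0.287), nor did 186wt and 343wt for Col4a5 (0.0664) and Col4a6 (0.427). The same order of sample numbers was seen in 14 of 40 expressed members (35.0%) and in 8.14% of all tested genes. The 14 include Col6a5, which passed the filter through 456wt alone.

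Among the other collagens, type VI, which forms beaded microfilaments around cells, summed to 110 FPKM in 186wt, 91.9 in 343wt, 153.2 in 444wt and 254.8 in 456wt. Col6a1 had 57.9, 49.2, 78.4 and 129.7 FPKM, Col6a2 had 33, 26.9, 47.9 and 85.5, and Col6a3, the longest chain of the trimer, had 10.6, 10.4, 15 and 24.8. The largest of the 3 differences between 456wt and 343wt was that of Col6a2 (1.67 ± 0.02 in log2, adjusted p = 1.37e-12). Col6a4, Col6a5 and Col6a6, a cluster of genes on chromosome 9 whose products can take the place of the α3 chain, were at 8.96, 0.278 and 0.903 FPKM on average. Col6a5 passed the filter through 456wt alone, where it had 0.91 FPKM against 0.0533 to 0.0767 in the other numbers, so its difference was built into its selection.

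The multiplexins did not share the pattern. Col18a1, whose C-terminal fragment is endostatin, had 148.4 FPKM in 186wt, 130.1 in 343wt, 100.6 in 444wt and 101.5 in 456wt. It was 0.56 ± 0.02 lower in log2 in 444wt than in 186wt (limma adjusted p = 2.15e-10), and 444wt and 456wt did not pass the test against each other (0.01 in log2, adjusted p = 0.587). It was the second highest collagen gene of all members, and in 186wt it exceeded every fibrillar gene. Col15a1, its closest relative, had 21.4, 31.4, 18.3 and 33.6 FPKM, low in the 2 numbers 186wt and 444wt and high in the other two. The 2 multiplexins therefore differed from each other as well as from type IV, with which they share a location in the basement membrane zone.

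The FACIT collagens, which decorate fibrils, included the widest range of tested members on the log2(FPKM + 0.1) scale, though not as a plain ratio. Col16a1 was the only one above 10 FPKM, with 12, 9.45, 11 and 22 FPKM in 186wt, 343wt, 444wt and 456wt. Col12a1, Col14a1 and Col9a2, named after their values were seen, were low in most libraries and higher in 456wt. Col12a1 went from 0.233 FPKM in 186wt to 2.83 in 456wt (3.16 ± 0.32 in log2, adjusted p = 1.1e-05), Col14a1 from 1.05 to 6.84 (2.6 ± 0.13, adjusted p = 3.89e-08) and Col9a2 from 1.01 to 7.19 (2.81 ± 0.25, adjusted p = 4.29e-06). Col12a1 and Col14a1 bind the surface of type I fibrils. Col9a3, also chosen after its values were seen, went the other way, with 5.95, 5.4, 3.47 and 3.42 FPKM. Its exons share 234 bp with those of Tcfl5 on the opposite strand, which stood at 22, 23.3, 29.9 and 30.5 FPKM, and the strand setting of the counting is not given in the sources used here, so reads of the pair cannot be told apart.

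The remaining members were low. The 4 transmembrane collagens lay between 1.05 FPKM (Col25a1) and 3.02 FPKM (Col13a1), and 2 of them passed the test. Col7a1, the anchoring fibril chain, had 1.76 ± 0.415 FPKM and Col28a1 had 0.84 ± 0.29 FPKM. Of the 2 expressed short-chain collagens, Col8a2 had 3.73 ± 2.34 FPKM and Col8a1, from Descemet's membrane and vessel walls, 0.328 ± 0.369 FPKM. Within the group of 26, the highest expressed member was Col18a1 and the lowest was Col6a5.

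**Figure D2:**
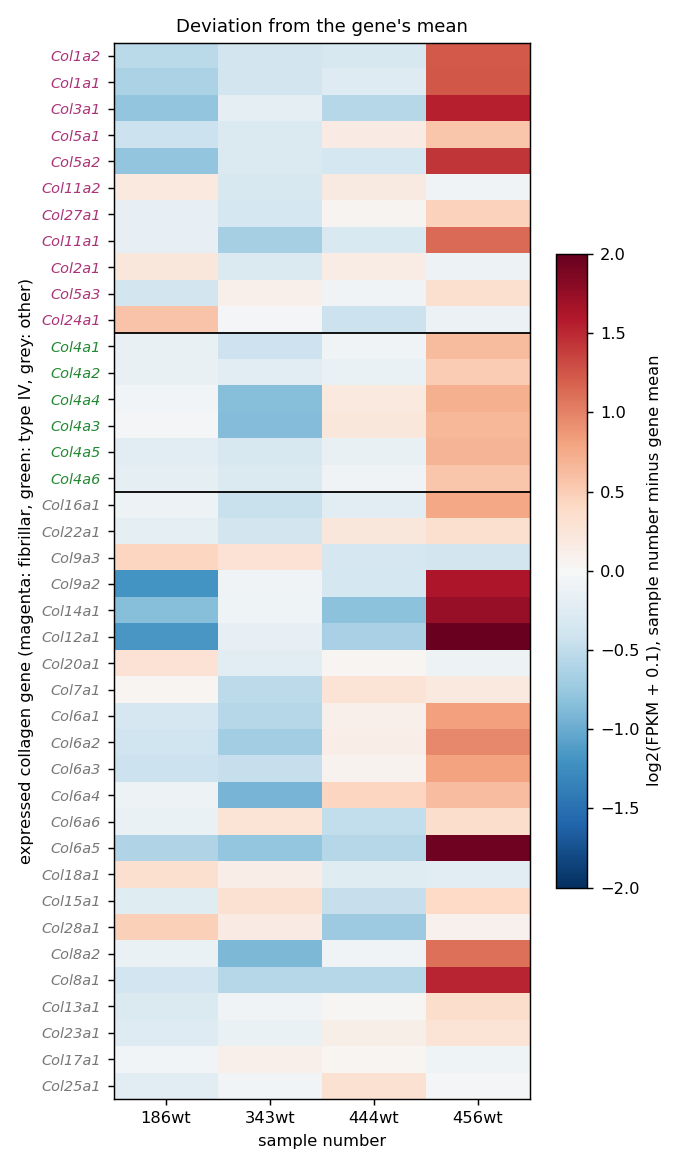
Deviation of each sample number from the gene's mean over the 4 numbers, on the log2(FPKM + 0.1) scale, for the 40 expressed collagen genes, with fibrillar genes on top, type IV in the middle and the other classes below, where red is higher and blue lower. The column of 456wt is the reddest for 30 of the 40 genes, and the type IV block has the same order of colours in all 6 rows.

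Over the 4 sample numbers, 35 of 40 tested members (87.5%) passed the limma F-test, against 58.2% of all 20795 tested genes. By class, 9 of 11 fibrillar, 6 of 6 type IV and 20 of 23 other members passed. The 5 that did not were Col11a2, Col2a1, Col17a1, Col20a1 and Col25a1. The median range between the highest and the lowest number was 1.03 in log2 for the members and 0.55 for all tested genes. The members' share is read against that of all genes, and it includes Col6a5, whose difference was built into its selection.

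The highest level was most often that of 456wt. It was the highest number for 30 of 40 members, and in 27 of these all 3 libraries were above every other library, against 27.3% and 9.18% of all tested genes. Of the 22 members with at least a 2-fold range, 20 were highest in 456wt and 2 in 186wt, a split not computed for all genes with such a range. These counts hold Col6a5, which had to be highest in 456wt to be tested. Without it they were 29 of 39, 26, and 19 of 21. With the libraries of 456wt left out, 27 of 39 members tested passed the F-test, against 50.8% of all tested genes. The number with the lowest value was 343wt for 21 members and 186wt for 12, and the matching shares of all tested genes were not computed.

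Between pairs of sample numbers, 456wt was higher than 186wt for 30 members and lower for 3 (Col18a1, Col24a1 and Col9a3), where 25.3% of all tested genes were higher and 15.3% lower. It was higher than 343wt for 29 members and lower for 2 (Col18a1 and Col9a3), with 27.0% and 13.9% of all genes. Against 444wt it was higher for 28 and lower for 0, with 15.8% and 14.1% of all genes. At an unadjusted p below 0.05 in limma, these last counts were 29 and 1. The median log2 difference of the 40 members was 0.74 against 186wt, 0.93 against 343wt and 0.67 against 444wt. The counts of higher members and the medians include Col6a5, which had to be higher in 456wt to be tested.

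The other 3 numbers also differed from each other. In 343wt, 10 of 40 members were higher and 14 lower than in 186wt, where 11.7% of all genes were higher and 12.4% lower. The higher ones included 5 fibrillar genes (Col1a1, Col1a2, Col3a1, Col5a2 and Col5a3). The lower ones included 4 of 6 type IV genes and 3 fibrillar genes (Col2a1, Col11a2 and Col24a1). In 444wt, 16 members were higher and 5 lower than in 186wt (25.6% and 16.1% of all genes), and 15 were higher and 7 lower than in 343wt (29.3% and 17.0%). Type IV supplied 5 of those 15. These comparisons share sample numbers with each other and are not independent.

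**Figure D3:**
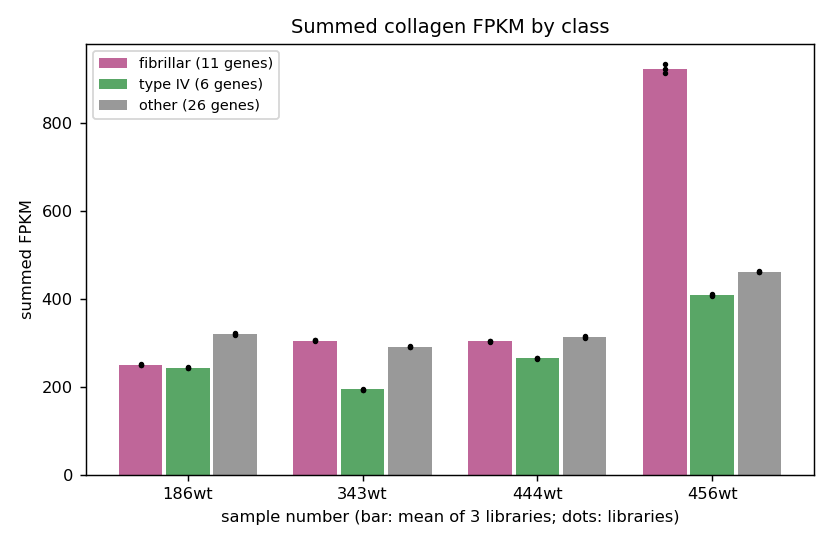
Summed FPKM of the 11 fibrillar, 6 type IV and 26 other collagen genes in each sample number, where bars are the mean of 3 libraries and dots are the libraries. The fibrillar bar of 456wt reaches 923.2 FPKM, while the fibrillar bars of the other numbers lie between 250.6 and 305.4.

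Summed by class, the fibrillar genes had 250.6 FPKM in 186wt, 305.4 in 343wt, 304 in 444wt and 923.2 in 456wt. The type IV genes had 243.8, 194.2, 265.1 and 408.8 FPKM, and the other classes 320.5, 290.9, 313.4 and 461.6. The fibrillar sum of 456wt was thus 3.02 times that of the next highest number, the type IV sum 1.54 times and that of the others 1.44 times. Fibrillar genes made up 30.8% of the collagen sum in 186wt and 51.5% in 456wt. The ratio of the fibrillar to the type IV sum was 1.03 in 186wt, 1.57 in 343wt, 1.15 in 444wt and 2.26 in 456wt, or 1.5 ± 0.556 over the 4 numbers. These differences between the sums were not tested. The numbers 343wt and 444wt, with nearly the same fibrillar sum, had different type IV sums.

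The median member gives another view of the classes. It was 2.73 FPKM for fibrillar, 39.4 for type IV and 2.54 for the others, since the fibrillar sum rests on Col1a1, Col1a2 and Col3a1 while 5 of 6 type IV genes exceeded 10 FPKM. The median log2 difference between 456wt and 343wt was 0.85 for the 11 fibrillar members, 1.03 for type IV and 0.72 for the others, so by the median member the fibrillar class did not exceed type IV in this pair. Between 456wt and 444wt the medians were 0.42, 0.63 and 0.72. Between 456wt and 186wt they were 0.99, 0.76 and 0.65, so in that pair the fibrillar median was the highest. The median range over the 4 numbers was 0.99 for fibrillar, 1.03 for type IV and 1.19 for the others. Between 456wt and 343wt, Col1a1, Col1a2, Col3a1, Col5a2 and Col11a1 were higher by 1.59 to 1.8 in log2. In the same pair Col2a1, Col11a2, Col5a3 and Col24a1 did not pass the test.

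**Figure D4:**
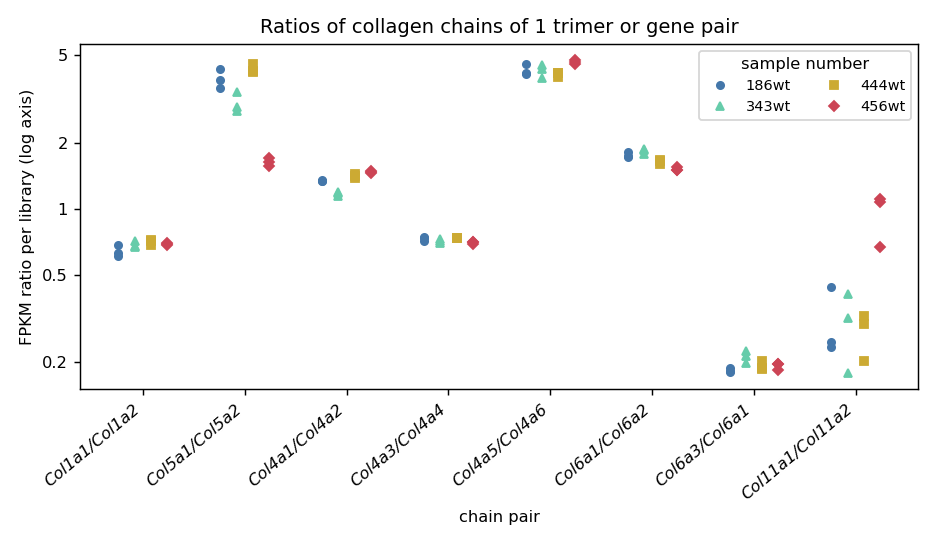
FPKM ratio of collagen chains that join in 1 trimer or whose genes lie head to head, on a log axis, with 1 point per library. Col1a1/Col1a2 and Col4a3/Col4a4 stay near 0.7 in all 4 sample numbers, while Col5a1/Col5a2 falls to 1.63 and Col11a1/Col11a2 climbs to 0.947 in 456wt.

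Most chain pairs had a steadier ratio than their levels, with types V and XI as exceptions. Type I collagen holds Col1a1 and Col1a2 chains, from chromosomes 11 and 6, and the ratio of their FPKM was 0.679 ± 0.0276 (SD, n = 4), with 0.641 in 186wt, 0.682 in 343wt, 0.705 in 444wt and 0.691 in 456wt, although both levels changed more than 3-fold. For Col4a3 and Col4a4, whose 71 intervening bases are printed above, the ratio was 0.73, 0.711, 0.734 and 0.697, or 0.718 ± 0.0172, a coefficient of variation of 2.4%. Col4a1 and Col4a2, which overlap at their starts by 22 bp of exon on chromosome 8, had a ratio of 1.35 ± 0.128. Col4a5 and Col4a6, with starts 1309 bp apart on X, had 4.32 ± 0.244, and Col4a5 was the higher in every library.

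In type VI the ratio of Col6a1 to Col6a2 was 1.68 ± 0.137, and that of Col6a3 to Col6a1 was 0.194 ± 0.012. The ratio was least steady in types V and XI. Col5a1/Col5a2 was 3.89 in 186wt, 3.02 in 343wt, 4.32 in 444wt and 1.63 in 456wt. Col11a1/Col11a2 was 0.3, 0.296, 0.268 and 0.947. The type IX pair Col9a1/Col9a2 is not read further, since Col9a1 was not expressed. Col3a1 and Col5a2 are neighbours on opposite strands of chromosome 1, with 24615 bp between their ends, not their starts. They rose by similar amounts from 186wt to 456wt (2.34 and 2.22 in log2). Between 444wt and 343wt they differed: Col3a1 was lower in 444wt (-0.38 in log2, limma adjusted p = 2.02e-08). Col5a2 did not pass in that pair (-0.06, adjusted p = 0.613).

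Genes that make, secrete and organise collagen were followed on a list of 71 symbols in 7 roles, of which 70 were found and 67 were tested. The F-test was passed by 58, against 58.2% of all tested genes. Between 456wt and 343wt, 47 were higher and 9 lower, where 27.0% and 13.9% of all genes were. Between 456wt and 444wt, 49 were higher and 2 lower (Agrn and Ddr1), with 15.8% and 14.1% of all genes. The highest number was 456wt for 51 of the 70 genes found, and for 27.3% of all tested genes.

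The enzymes that modify chains in the endoplasmic reticulum were abundant. Their 14 genes summed to 752.4 FPKM in 186wt, 696.9 in 343wt, 695.3 in 444wt and 798.7 in 456wt, and 9 were higher and 3 lower (P4ha1, Plod2 and Glt25d1) in 456wt than in 343wt. P4hb, the β subunit of prolyl 4-hydroxylase, had 192 FPKM on average, Ppib (cyclophilin B) 183.6 and Glt25d1, a collagen galactosyltransferase, 115.8. Among 5 folding and export genes the sum was 135.9, 137.9, 131.8 and 203.7 FPKM. Serpinh1, the collagen chaperone HSP47, accounted for most of the difference, with 54.8, 53, 59.3 and 107.2 FPKM, followed by Fkbp10 with 23.3, 27, 22 and 34.8. Sec23a, part of the coat of export vesicles, had 31.1, 30.7, 31.3 and 33.6 FPKM.

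Outside the cell, 12 genes cut propeptides and cross-link chains. Their sum was 108.2, 111.1, 127.4 and 204 FPKM, and 9 were higher in 456wt than in 343wt. Pcolce, the enhancer of the C-propeptidase, had 27.5, 39.3, 28.9 and 54.6 FPKM. Pxdn, the peroxidase that cross-links type IV, had 19.9, 17.7, 23.6 and 30.2 FPKM, and Bmp1, the C-propeptidase itself, had 18.2, 18.7, 24.1 and 27.9 FPKM. Fibril-associated proteins were led by Sparc, with 843.6, 859.3, 577.5 and 923.9 FPKM. Eln (elastin) had 137.5, 68.6, 178.3 and 347.3 FPKM, and Bgn (biglycan), a small proteoglycan, had 74.9, 60, 86.4 and 172.8 FPKM.

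The 15 basement membrane partners summed to 423.7 FPKM in 186wt, 371.4 in 343wt, 431.7 in 444wt and 510.3 in 456wt, and all 14 tested passed the F-test. Lamc3, a laminin γ chain, had 78.4, 51.7, 96 and 113.4 FPKM, in the order of the type IV genes. Lamb2, a laminin β chain, had 93.4, 78.9, 57.4 and 77 FPKM, and Lamb1 had 44.2, 46.4, 61 and 66.4. The members of the basement membrane therefore did not all follow type IV. Among the collagen receptors, Itgb1, the shared integrin β1 subunit, had 110.6, 107, 104.8 and 135.9 FPKM, Ddr1 had 90.4, 94.3, 63.8 and 59.8, and Mrc2, an uptake receptor for collagen, had 4.91, 3.9, 6.14 and 8.03. Itga1, the α subunit of a collagen-binding integrin, had 3.08, 1.6, 2.87 and 6.79 FPKM and was 2.02 higher in log2 in 456wt than in 343wt (limma adjusted p = 1.01e-08). Of 8 receptor genes, 4 were higher in 456wt than in 343wt (Itga1, Itgb1, Ddr2 and Mrc2) and 1, Ddr1, was lower.

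Among 9 genes of collagen breakdown, the inhibitor Timp2 had 122.8, 128.7, 63.1 and 107.8 FPKM, the membrane protease Mmp14 had 65.1, 64.2, 50.8 and 55.1, and the inhibitor Timp3 had 64.2, 50.7, 48.5 and 68.5. The collagenases Mmp8 and Mmp13 were below 0.1 FPKM, at 0.00417 and 0.0167 FPKM.

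**Figure D5:**
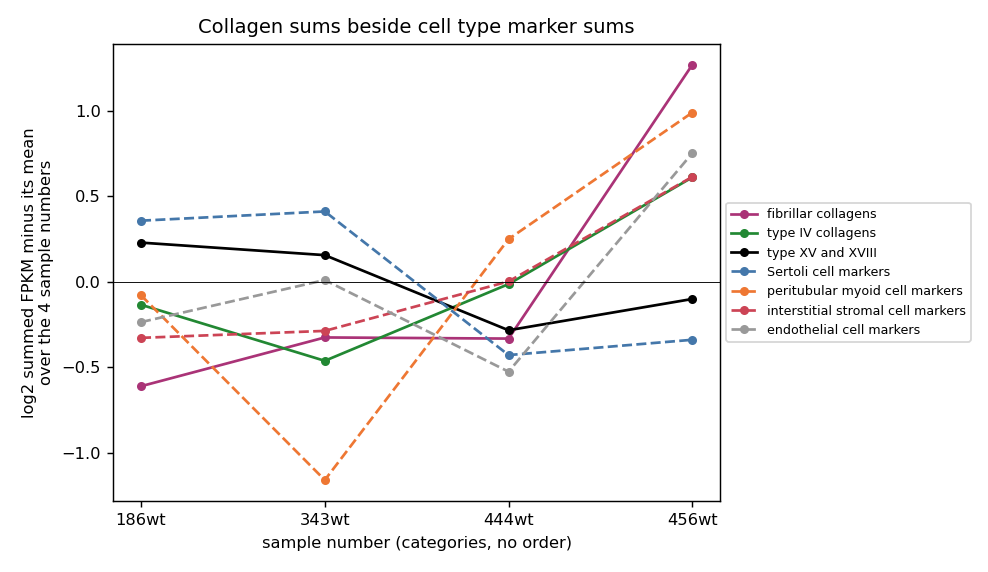
Log2 of the summed FPKM in each sample number minus its mean over the 4 numbers, for 3 groups of collagen genes (solid lines) and 4 lists of cell type markers (dashed lines); lines only join values of 1 list. The type IV line has its low point in 343wt and its high point in 456wt, as does the peritubular myoid line. The line of types XV and XVIII is high in 186wt and 343wt, as is the Sertoli line. Most of the sum of types XV and XVIII is Col18a1, while Col15a1 was highest in 456wt and lowest in 444wt.

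Levels in bulk RNA move both with the number of cells of a type and with the RNA each cell holds, and the data do not separate these. Marker lists of somatic cells moved between the same sample numbers. The 7 peritubular myoid markers, genes of the contractile cells around the tubule, summed to 562.3 FPKM in 186wt, 265.8 in 343wt, 706.2 in 444wt and 1180.2 in 456wt, with libraries at 558.9 to 564.5, 263.1 to 268.1, 699.5 to 710.5 and 1166.2 to 1189.6. All 7 were highest in 456wt. Acta2 had 393.8, 184.3, 500.5 and 812.4 FPKM, Myh11 had 70, 32.7, 89.1 and 124.4, and Tagln had 50.7, 25.7, 58.1 and 133.2. The order of their sum is that of the type IV genes.

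The 5 interstitial stromal markers summed to 94.5, 97.2, 118.8 and 181.6 FPKM (libraries from 93.5 to 184.8), and all 5 were highest in 456wt. Tcf21 had 42.3, 31.2, 44.8 and 81.7 FPKM, Pdgfra had 20.4, 30.8, 28.2 and 34.1, and Nr2f2 had 18.9, 14.4, 25.8 and 37.7. The order of this sum is that of Col1a1 and Col1a2, and was seen in 5 expressed members (12.5%) and in 7.68% of all tested genes. The 8 endothelial markers summed to 25.8, 30.6, 21.1 and 51.2 FPKM (libraries from 20.1 to 52.3) and all 8 were highest in 456wt, led by Cdh5 with 9.68 FPKM, Esam with 4.76 and Vwf with 4.16 on average. Col15a1 and Col6a6 had the order of the endothelial sum, 2 expressed members (5.0%) against 3.0% of all tested genes. For Col6a6, 456wt and 343wt did not pass the limma test against each other (adjusted p = 0.715). Nor did 444wt and 186wt (adjusted p = 0.0755).

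The 9 Sertoli markers summed to 4396.6 FPKM in 186wt, 4564.1 in 343wt, 2548.8 in 444wt and 2712 in 456wt, and none was highest in 456wt. Clu had 2288.8, 2380.4, 1251.2 and 1455.9 FPKM, Aard had 678.3, 774.3, 461.3 and 407.6, and Cst12 had 723.2, 661.5, 380 and 422.4. Col18a1 was likewise higher in 186wt and 343wt than in 444wt and 456wt. Leydig markers (6 genes, libraries from 15.4 to 110.9 FPKM in sum, led by Hsd3b1, Insl3 and Star) and macrophage markers (8 genes, 9.9 to 47.2 FPKM, led by C1qb, Mrc1 and C1qa) were both highest in 343wt, where neither fibrillar nor type IV genes were. No listed marker was at 0 in any sample number.

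Of the germ cell lists, the 10 meiotic markers summed to 321.5, 244.6, 409.2 and 275.3 FPKM, with Sycp3 at 73.1, Sycp1 at 52 and Smc1b at 47.5 FPKM on average, and none was highest in 456wt. The 7 spermatogonial markers summed to 567.5, 593.8, 783.4 and 711.5 FPKM, led by Uchl1, Dmrt1 and Kit. The part of any of these cell types in the collagen differences was not tested.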

How the data were processed

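RNA-seq values of enriched germ cells from C57BL/6J testes at 12 dpp were used, 12 libraries under 4 sample numbers. Paired reads of 100 bp had been mapped by the authors to NCBI build 37 transcripts (BowTie 0.12.9). Reads carrying 2 or more mismatches were dropped, and the authors derived FPKM in RSEM 1.2.8, set to fragments of 280 ± 50 bp. The FPKM were deposited with 2 decimals and without counts, and no strand setting is given in the sources used here. RSEM divides reads that match several transcripts, so close paralogs are less certain. ChIP-seq and Affinity-seq samples were not analysed here.

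Libraries of a number were averaged, and mean ± SD is over 4 numbers. Tests of differences used lmFit and eBayes with trend (limma 3.58.1, R 4.3.3) on log2(FPKM + 0.1) over genes averaging 0.1 FPKM or more. The pseudocount understates changes of low genes. The F-test was adjusted by Benjamini-Hochberg over genes, and contrasts over genes and 6 pairs, and called at 0.05. The fit was tested on simulated data. Depth was estimated from the steps of low FPKM values, so fragment numbers are estimates that cover counting error only. Of 37620 identifiers, 37205 matched GENCODE M1. Gly-X-Y runs and exons came from the longest coding transcript of each member, and start regions from RefSeq (GRCm38.p6) for 35 members.

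Values in each sample number were given for members averaging 10 FPKM or more, members of chain pairs with both chains expressed and the 5 members with the smallest p-value, for the 3 highest genes of each list, and for genes a small count refers to. Others were named after their values were seen, and are Col6a4, Col6a5, Col6a6, Col8a1, Col8a2, Col9a2, Col9a3, Col12a1, Col14a1 and Col28a1. Members and lists were chosen with earlier results of these data known. Python 3.11.15, numpy 2.4.6, pandas 2.3.3 and matplotlib 3.10.9 served for all else. Alternatives were other pseudocounts, filters and scalings, a replicate block, leaving out libraries or sample numbers, and other ways to define classes, expression and ratios. Leaving out Col6a5, alone or with Col9a3, and the settings for 6 members chosen after their values were seen were added after seeing the data.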

Additional observations from a re-analysis of the deposited data

Results flagged for a closer look

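Among 48 values tested over the 4 sample numbers (named members, class sums, chain ratios and list sums), 11 had 1 number far from the other 3, with a gap to the nearest above Dixon's critical share of the whole range. For independent values from 1 normal distribution the rule would single out about 1 in 20. The share of all tested genes that it would single out was not computed, so an excess particular to collagens cannot be read from this count. Of the 11 values, 10 were in 456wt. They were Col1a2 at 356 FPKM, Col1a1 at 245.8, Col3a1 at 266.5, Col4a2 at 106.3, Col4a5 at 22.7 and Col5a2 at 16.8, the fibrillar sum at 923.2 FPKM, the sum of all collagens at 1793.7 FPKM, the Col11a1/Col11a2 ratio at 0.947 and the sum of the folding and export genes at 203.7 FPKM. The eleventh was the sum of the genes of collagen breakdown, which was low in 444wt at 186.9 FPKM. These values share genes with each other and are not independent.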

How the results depend on the processing

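The count of members that differed between the 4 sample numbers was 35 in the fit reported and 27 to 37 over all other settings, the lowest without 456wt. With the library number as a replicate block it was 35. Between sample numbers, the deviations of libraries with the same library number had a median correlation of 0.019 (range -0.272 to 0.267). It was -0.007 for libraries with different library numbers, over 8227 genes with at least 10 FPKM. Of 12 libraries, 3 correlated best with a library of their own library number. Whether such libraries share a batch was not tested. Without Col6a5 and Col9a3, 33 of 38 passed, and without Col6a5 29 of 39 members were highest in 456wt. The number of expressed members was 34 with a minimum of 1 FPKM and 43 with any value above 0. Members lower in 444wt than in 186wt were 3 in place of 5 with a minimum mean of 1 FPKM, under which fewer genes were tested. With types XV and XVIII counted as basement membrane, that sum was 424.3 FPKM in place of 278 and the other classes 200.3 in place of 346.6. The contrast between the highest and the lowest number was followed under the other settings for 25 members, the 19 named by the rule and 6 chosen after their values were seen (Col6a5, Col9a2, Col9a3, Col12a1, Col14a1 and Col24a1). None of these reversed in a setting that gave a value, and the contrast of Col11a2 between 186wt and 343wt lost its call in 15 of them, at adjusted p up to 0.179 (the cause was not tested). Another scaling moved sample numbers by at most 0.1 in log2. A level of 0.1 FPKM rests on few fragments, which limits members near it.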
